A study of Mus musculus with 12 samples.

Results

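The lungs of old tumour-bearing mice given antibodies against PD-1 and the IL-21 receptor together (the combination group) were compared with those of old mice given a control antibody. The 6 libraries were chosen by their labels alone, as the 3 columns of the count table for each of these groups, out of 12 libraries in the series. All mice were C57BL/6J and carried MO4, a melanoma line injected under the skin, and RNA was taken from the whole lung. Mice of both groups were 22 months old, and the control antibody was a rat antibody matched for isotype. The labels give days 3, 7 and 11 after tumour injection for anti-PD-1 and control antibody and no day for the antibody against the IL-21 receptor. The series has no group given the IL-21 receptor antibody alone, so its own share in a difference from control cannot be told apart. Another group of 3 libraries, from 22-month-old mice given anti-PD-1 alone, is set beside the comparison. The 3 remaining libraries, from 2-month-old mice given anti-PD-1, entered only the choice of genes with enough counts, the scaling and the estimate of spread. The question is what remains different from control in the old lung when both antibodies are given.

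PD-1 is a receptor on activated lymphocytes that damps signalling from the antigen receptor, and antibodies that block it release T cells for attack on tumours. IL-21 is a cytokine made mainly by follicular helper T cells, the CD4 T cells that help B cells in lymphoid follicles. Its receptor pairs with the common gamma chain and drives B cells towards antibody secretion. CXCL13 is the chemokine that draws CXCR5-bearing B cells and helper T cells into such follicles. The lung is also rich in blood, and megakaryocytes, the cells that shed platelets, lodge in its vessels.

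Counts per library ran from 16021877 to 19694783 in the 6 libraries compared. Values are given as CPM (counts scaled to a common library size by TMM), which corrects for library composition, and fold changes as log2 differences ± SE from an edgeR quasi-likelihood fit of all 12 libraries, with 3 libraries a group. The labels do not tie each library to a separate mouse, so the p-values reflect spread between libraries that may be technical. The libraries carried lung markers at high levels, such as 159564 to 266098 counts of the surfactant gene Sftpc, and the pigment genes Tyr, Tyrp1 and Dct had 0 to 5 counts each. On the first principal component of the 9 aged libraries, with 29.5% of the variance, the anti-PD-1 libraries scored 33.0 to 42.5, the control libraries -26.7 to -11.3 and the combination libraries -31.5 to -5.18.

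Combination libraries 2 and 3 stood apart from the other 7 aged libraries in structural RNA. An 11-gene set led by the 18S ribosomal RNA gene Rn18s-rs5 and its overlapping neighbour Gm42418 (chromosome 17, chosen after its values were seen) held 0.230% of counts in combination library 1, 1.00% in library 2 and 1.83% in library 3. In the control libraries the share was 0.155 to 0.234%, and in the anti-PD-1 libraries 0.137 to 0.189%. Rn7sk, the 7SK RNA that holds back a transcription elongation factor, is itself a member of this 11-gene set, so its values add no separate evidence. It had 2.53, 8.57 and 22.2 CPM in combination libraries 1, 2 and 3, against 1.71, 1.07 and 1.66 CPM in the control libraries. Combination library 1 stood apart in another way: Meg3, a non-coding RNA of an imprinted locus, reached 148 CPM there, 8.83 and 3.76 CPM in the other combination libraries and 4.11 to 5.87 CPM in the controls. For several gene lists below, a value without some of these libraries is given.

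No gene passed the test. Of 49585 genes in the table, 18556 had enough counts, and edgeR called 0 higher and 0 lower in the combination group at an adjusted p under 0.05 (0% of genes tested). The smallest adjusted p was 0.245. At an unadjusted p under 0.05 the test marked 1228 genes (6.62%), 505 higher (2.72%) and 723 lower (3.90%). The 3 combination values lay wholly above the 3 control values for 728 genes (3.92%) and wholly below for 1073 genes (5.78%). DESeq2, run as an alternative, called 39 genes higher (0.241% of the 16177 it adjusted) and 39 lower (0.241%), and limma-voom called 0. In the same edgeR fit anti-PD-1 alone against control had 990 genes called higher (5.34%) and 1035 lower (5.58%). That comparison uses the same control libraries. A p that misses the threshold does not show that values did not differ: the median SE was 0.18 on the log2 scale. The genes below are therefore described by their values, and lists of genes by how many members stood higher or lower, beside the same share over all genes.

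**Figure D1:**
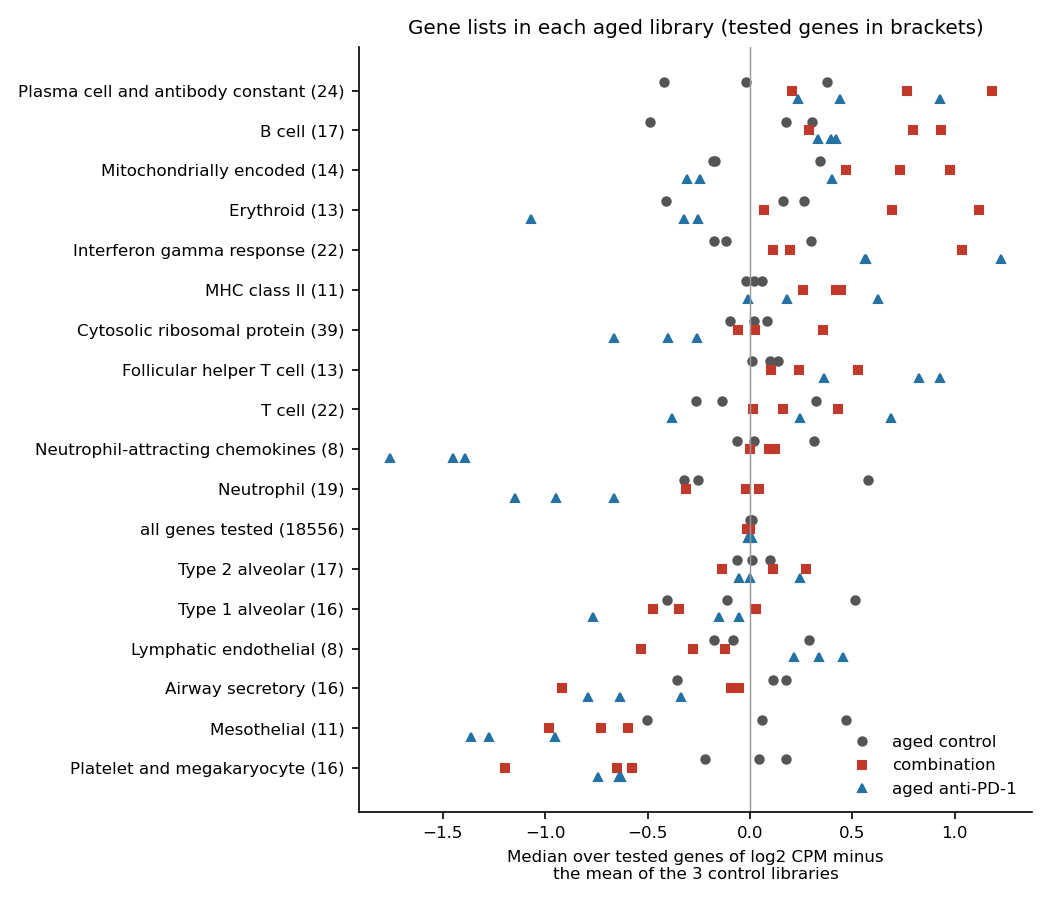
Median difference from the control mean, in log2 CPM, over the tested genes of 17 gene lists and over all 18556 genes tested, with 1 point for each control, combination and anti-PD-1 library (3 a group). The 3 combination points lie below all control points for the platelet list and the mesothelial list and above them for the mitochondrially encoded list and the MHC class II list, while the neutrophil chemokine list sits at control level in the combination group and far below it under anti-PD-1 alone.

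Platelet genes stood lower in the combination lungs. All 16 genes of a platelet and megakaryocyte list had a lower mean in the combination group, against 52% of all genes tested. All 16 had an unadjusted p under 0.05 (background 3.90%), and for 15 of 16 the groups did not overlap (background 5.78%). Their median log2 fold change was -0.79, against -0.01 over all genes. The list summed to 2490, 2650 and 2020 CPM in control libraries 1 to 3 and to 1050, 1670 and 1480 CPM in combination libraries 1 to 3. No member was called by edgeR, and DESeq2 called 5 of the 16 lower (background 0.241%). Whole-lung RNA cannot tell fewer cells of a type from less RNA per cell, here or for any list below.

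The members span receptors, granule proteins and regulators. Gp5 (ENSMUSG00000047953, chr16:30307686-30310779, mm10), a subunit of the platelet receptor for von Willebrand factor, stood at 69.5, 75.2 and 58.2 CPM in the control libraries and at 24.3, 39.0 and 33.0 CPM in the combination libraries. Every combination library was below every control library, with a log2 fold change of -1.08 ± 0.22 (edgeR adjusted p 0.291). Itgb3 (ENSMUSG00000020689), the beta subunit of the fibrinogen receptor, had 202, 236 and 175 CPM against 87.4, 125 and 111 CPM, and its log2 fold change was -0.92 ± 0.18 (edgeR adjusted p 0.291). Its partner Itga2b differed to a like degree, at -0.94 ± 0.27. Gp6, the platelet collagen receptor, had 31.6, 35.5 and 30.7 CPM in the control and 12.9, 19.4 and 18.1 CPM in the combination libraries (-0.96 ± 0.21, edgeR adjusted p 0.298). Combination library 1 was the lowest of the 9 aged libraries for each of these 4 genes.

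Among the transcription factors, Gata1 (ENSMUSG00000031162), which directs megakaryocyte and red cell development, had 8.73, 9.76 and 6.47 CPM in the control libraries and 4.38, 3.97 and 2.64 CPM in the combination libraries. The groups did not overlap (-1.18 ± 0.27, edgeR adjusted p 0.328). Nfe2, needed for platelet release, stood at -0.59 ± 0.16. The tubulin gene Tubb1, whose product forms the platelet's marginal band, stood at -0.97 ± 0.23. The granule chemokine genes Ppbp and Pf4 stood at -0.70 ± 0.20 and -0.59 ± 0.22, and Pf4 was the 1 member whose groups overlapped. The smallest difference in the list was that of F13a1, a clotting factor gene that macrophages express too, at -0.40 ± 0.13.

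Because these genes stood lower together, the stretch before their start sites was searched on both strands for AGATAA, called here the GATA-type match, and for AGGAAG, the ETS-type match. These factor families are well known at platelet genes. Promoters were taken from RefSeq (GRCm38.p6), which matched 13 of the 16 genes with 14 promoters, and the 250 bases before the start were used. AGATAA was found in 2 of 14 (14.3%), against 9.99% of all 32851 promoters, and AGGAAG in 9 of 14 (64.3%), against 29.5%. The promoters of the 3 members with the smallest p and a single RefSeq promoter follow, 5′ to 3′ on the gene's own strand, with matches in capitals. A match is a run of letters and not a shown binding site.
Gp5, chr16:30310782-30311031, minus strand, 2 GATA-type and 1 ETS-type matches: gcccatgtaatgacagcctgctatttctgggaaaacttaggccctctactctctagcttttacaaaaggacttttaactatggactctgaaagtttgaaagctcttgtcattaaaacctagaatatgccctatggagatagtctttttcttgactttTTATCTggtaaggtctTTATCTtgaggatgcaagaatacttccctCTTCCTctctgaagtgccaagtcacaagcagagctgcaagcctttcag
Gp6, chr7:4397745-4397994, minus strand, 1 GATA-type match: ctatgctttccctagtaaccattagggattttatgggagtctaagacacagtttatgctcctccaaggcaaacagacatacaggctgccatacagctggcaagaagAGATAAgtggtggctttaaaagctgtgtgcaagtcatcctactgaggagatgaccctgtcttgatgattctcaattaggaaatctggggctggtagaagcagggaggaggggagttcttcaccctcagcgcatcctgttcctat
Gata1, chrX:7967911-7968160, minus strand, 1 ETS-type match: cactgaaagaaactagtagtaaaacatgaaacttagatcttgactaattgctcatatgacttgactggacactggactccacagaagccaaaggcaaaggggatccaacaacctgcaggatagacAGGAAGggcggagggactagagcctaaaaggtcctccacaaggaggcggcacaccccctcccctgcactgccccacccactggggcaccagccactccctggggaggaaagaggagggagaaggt

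Platelet genes stood lower with anti-PD-1 alone too, in a comparison that shares the control libraries. In that group the list's median against control was -0.64, and 6 of its 16 members were called lower by edgeR (background 5.58%). Gp5 stood at 40.5, 32.1 and 34.8 CPM there (-0.92 ± 0.22 against control, edgeR adjusted p 0.023) and Itgb3 at 131, 105 and 99.1 CPM (-0.87 ± 0.18, edgeR adjusted p 0.0122). Between the combination and anti-PD-1 groups 0 of the 16 members were called in either direction by edgeR (background 4.67% higher and 4.35% lower), and the median difference was -0.07. Leaving out any 1 of the 6 libraries gave medians from -0.94 to -0.62, with all 16 members still lower in the combination group. For the 15 members without overlap that direction could not change, so it adds no evidence. The same holds for combination library 1 alone, kept after libraries 2 and 3 were dropped for their structural RNA. All 16 were lower there, but that library had the lowest sum of the list, at 1050 CPM.

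**Figure D2:**
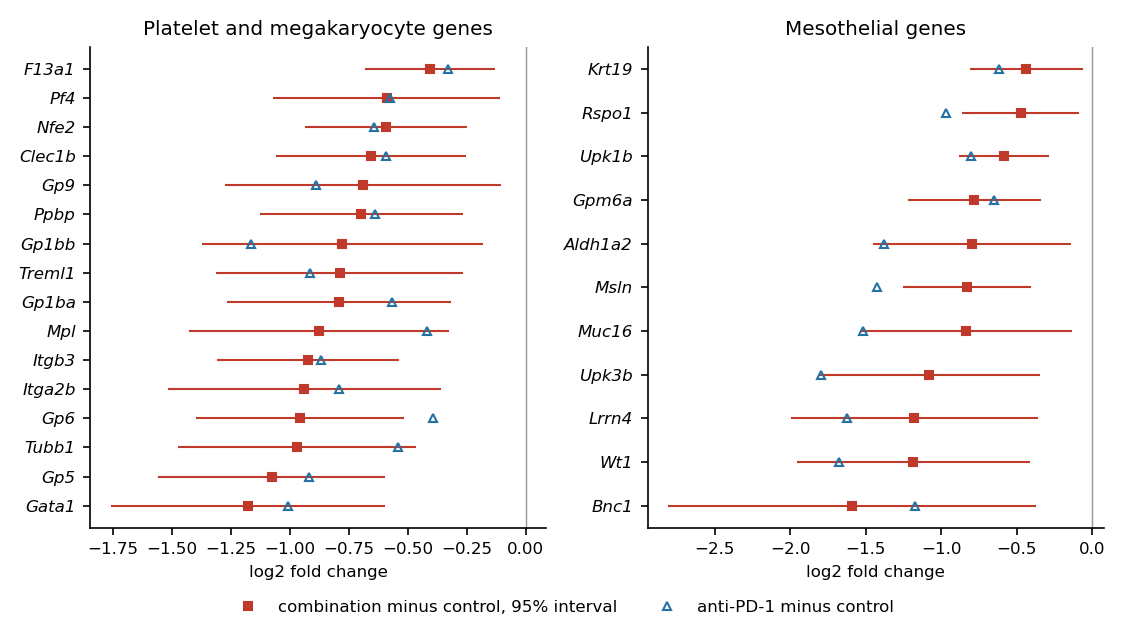
Log2 fold change of each tested platelet gene (16) and mesothelial gene (11) in the combination group against control (squares, with unadjusted 95% intervals) and in the anti-PD-1 group against control (triangles, no interval drawn). Every square lies below 0, and most mesothelial triangles lie further from 0 than their squares.

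Several genes outside the list that platelets are known to use stood lower, and apart from F2rl2 they were picked out after their values were seen. F2rl2, a thrombin receptor gene, had 21.8, 25.0 and 21.5 CPM in the control and 10.7, 15 and 13.5 CPM in the combination libraries (-0.80 ± 0.15, edgeR adjusted p 0.291). Alox12, the platelet lipoxygenase gene, stood at -0.90 ± 0.20, the coagulation factor gene F5 at -0.88 ± 0.19, and Fermt3, which activates integrins in blood cells, at -0.63 ± 0.14. Slc22a14, of the organic ion transporter family, is not counted among these platelet genes and was named by the same rule as F2rl2. It had the largest fold among the 5 lower genes with the smallest p, at low levels. The control libraries had 1.51, 2.48 and 2.89 CPM and the combination libraries 0.787, 0.640 and 0.725 CPM, without overlap (-1.66 ± 0.33, edgeR adjusted p 0.291). Slc22a14 was called lower under anti-PD-1 alone (-2.31 ± 0.33, edgeR adjusted p 0.00407). Under anti-PD-1 alone F2rl2 was called lower by edgeR (-0.82 ± 0.15, adjusted p 0.00745).

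A further set of low genes departed from anti-PD-1 alone as well as from control. Itga6 (ENSMUSG00000027111, chr2:71745616-71858416, mm10), the integrin alpha 6 chain of epithelial, endothelial and platelet laminin receptors, had the smallest p of all genes. Its level was 120, 139 and 125 CPM in the control, 83.3, 73.2 and 91.1 CPM in the combination and 150, 146 and 146 CPM in the anti-PD-1 libraries. The combination libraries were the 3 lowest of the 9. The log2 fold change was -0.63 ± 0.10 against control (edgeR adjusted p 0.245) and -0.84 against anti-PD-1 (edgeR adjusted p 0.00131), so that Itga6 fell in the second contrast. Ptgs1, the gene of cyclooxygenase 1, followed the same order, with 61.7 to 63.0 CPM in control, 43.3 to 48.0 CPM in combination and 66.8 to 79.7 CPM in anti-PD-1 libraries. It stood at -0.46 ± 0.09 against control (edgeR adjusted p 0.291) and fell by 0.70 against anti-PD-1 (edgeR adjusted p 0.00192).

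The other genes of this set described here belong to vessels, granule release and the clock, and they are not all of it. Map3k6, for example, stood at -0.68 ± 0.16 against control (edgeR adjusted p 0.328) and was called lower than under anti-PD-1 (edgeR adjusted p 0.00561). Mmrn1, a multimerin of lymphatic endothelium and platelets, had 44.5, 47.4 and 43.6 CPM in the control and 32.2, 30.3 and 30.0 CPM in the combination libraries (-0.55 ± 0.13, edgeR adjusted p 0.334), and it was lower than under anti-PD-1 by an edgeR adjusted p of 0.0141. Vwf, von Willebrand factor of endothelium and platelets, stood at -0.41 ± 0.12 against control and was called lower than under anti-PD-1 (edgeR adjusted p 0.011). Sytl4, involved in granule secretion, stood at -0.90 ± 0.18 against control and was called lower than under anti-PD-1 (edgeR adjusted p 0.0219). Cry2, a repressor of the circadian clock, had 58.2, 60.4 and 58.0 CPM in the control and 42.2, 39.7 and 41.3 CPM in the combination libraries, without overlap (-0.52 ± 0.11, edgeR adjusted p 0.291). It was the 1 gene of 20 in the clock list with an unadjusted p under 0.05, and the labels give no hour of collection.

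Mesothelial genes, those of the cells that cover the lung surface, also stood lower throughout. All 11 of the list had a lower mean and an unadjusted p under 0.05, and for 6 the groups did not overlap (3.90% and 5.78% of all genes). Their median log2 fold change was -0.83. The list summed to 733, 798 and 863 CPM in the control libraries and to 497, 508 and 512 CPM in the combination libraries. Msln (ENSMUSG00000063011), which encodes the surface protein mesothelin, had 101, 119 and 148 CPM in the control and 69.5, 75.5 and 61.3 CPM in the combination libraries (-0.83 ± 0.20, edgeR adjusted p 0.348). Upk1b, a uroplakin gene, had 33.1, 34.2 and 36.8 CPM against 27.7, 22.2 and 19.5 CPM (-0.58 ± 0.14, edgeR adjusted p 0.348). Neither gene's groups overlapped. The factor gene Wt1, typical of mesothelium, stood at -1.19 ± 0.36.

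Under anti-PD-1 alone the mesothelial median was -1.38, and 9 of the 11 genes were called lower by edgeR (5.58% of all genes). The combination values lay between those of the 2 other aged groups for Msln, whose anti-PD-1 libraries had 47.9, 50.0 and 39.0 CPM. Over the list the median of combination against anti-PD-1 was 0.49. In that contrast edgeR called 0 of the 11 genes, against 4.67% of all genes higher and 4.35% lower. With 11 genes a count of 0 is close to these shares and does not show that the groups were alike. Without control library 3 the median against control was -0.64 and 6 of 11 members had an unadjusted p under 0.05. The median was -0.70 with combination library 1 as the only combination library. With the share of structural RNA added to the fit as a covariate it was -0.82, and 4 members reached that mark. Lists for tissue that can come with a dissected lung had lower means too: 12 of 12 adipocyte genes (median -0.70, 128 to 281 CPM summed in control, 93.3 to 173 CPM in combination libraries), and 11 of 17 cardiac muscle genes, with 805 to 1430 CPM against 630 to 882 CPM, where 52% of all genes had a lower mean. The adipocyte median was -0.40 without combination library 1, -0.46 without control library 1 and -0.45 without control library 2, and the cardiac median of -0.25 was -0.01 without control library 1. Their part in the mesothelial result was not tested.

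Other structural lists differed less. For them the shares over all genes tested were 52% with a lower mean and 3.90% lower at an unadjusted p under 0.05. Airway secretory genes had a lower mean in 14 of 16 cases, with 4 at an unadjusted p under 0.05 and a median of -0.33. Without combination library 1 that median was -0.13, with 0 lower and 1 higher at that mark, and without control library 2 it was -0.16. Combination library 1 was the lowest of the 6 for Scgb3a2, a secretoglobin gene, at 604 CPM against 938 to 1430 CPM in the controls. All 16 type 1 alveolar genes had a lower mean (median -0.27), but 0 reached an unadjusted p under 0.05, and control library 1 alone was high, with 14500 CPM summed against 6880 and 8510 CPM in the other controls. Without control library 1 the median was 0.01. Type 2 alveolar genes, the surfactant makers, had a median of 0.09, and 0 of 17 reached that mark. All 8 lymphatic endothelial genes tested had a lower mean (median -0.34, 2 at an unadjusted p under 0.05), and without control library 1 the median was -0.13. The hyaluronan receptor gene Lyve1 had 108 to 140 CPM in the combination, 139 to 159 CPM in the control and 253 to 295 CPM in the anti-PD-1 libraries. It fell by 1.17 against anti-PD-1 (edgeR adjusted p 0.000471) and stood at -0.34 ± 0.12 against control (edgeR adjusted p 0.591).

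B cell genes stood higher. All 17 tested genes of the B cell list had a higher mean in the combination group, against 48% of all genes tested. Of these, 13 had an unadjusted p under 0.05 (background 2.72%) and 5 had groups without overlap (background 3.92%). The median log2 fold change was 0.66. None was called by edgeR and 2 were called higher by DESeq2 (background 0.241%). The list summed to 609, 368 and 649 CPM in the control libraries and to 642, 983 and 898 CPM in the combination libraries, so combination library 1 lay within the control range and libraries 2 and 3 above it.

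Tnfrsf13c (ENSMUSG00000068105, chr15:82221744-82224339, mm10), which encodes the receptor for the B cell survival factor BAFF, had the smallest p of the higher genes once predicted genes and antigen receptor segments were set aside. It stood at 7.58, 6.38 and 7.48 CPM in the control libraries and at 11.4, 18.3 and 17.8 CPM in the combination libraries. All 3 combination values lay above all control values (1.14 ± 0.20, edgeR adjusted p 0.291). Under anti-PD-1 alone it had 10.2, 7.54 and 9.13 CPM, and it was called higher in the combination than in that group (0.82, edgeR adjusted p 0.0244). Pou2af1 (ENSMUSG00000032053), the octamer coactivator of antibody genes, was counted in the plasma cell and antibody list and not in the B cell list. It was named for its small p. Pou2af1 had 17.9, 14.7 and 22.2 CPM against 24.1, 37.2 and 35.3 CPM, without overlap (0.82 ± 0.17, edgeR adjusted p 0.291). It was called higher under anti-PD-1 alone (0.89 ± 0.17, edgeR adjusted p 0.00857).

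The signalling genes Bank1 and Blk, both acting below the B cell receptor, stood at 0.81 ± 0.20 and 0.71 ± 0.18 without overlap between groups, and the lineage factor gene Ebf1 at 0.56 ± 0.15. For the surface marker Ms4a1 (0.68 ± 0.23) the groups overlapped, since the highest control value, 49.0 CPM, exceeded the 45.0 CPM of combination library 1. Lax1, an adaptor that restrains lymphocyte receptor signalling, is outside the B cell list and was named for its small p. It had 8.78, 6.43 and 8.39 CPM in the control and 10.3, 14.5 and 14.5 CPM in the combination libraries (0.73 ± 0.17, edgeR adjusted p 0.321). With anti-PD-1 alone 4 of the 17 B cell genes were called higher by edgeR (background 5.34%), with a median of 0.31.

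How large the B cell difference was depended on single libraries. The median was 0.45 without control library 2, the lowest of the controls, and 0.84 without combination library 1. With combination library 1 as the only combination library, 15 of 17 genes were higher, with a median of 0.26, and 2 had an unadjusted p under 0.05. When the share of structural RNA was added to the fit as a covariate, the median was 0.24 and 2 members reached that mark. The 2 libraries with more structural RNA were thus those with more B cell RNA. Whether the structural RNA had a part in it was not tested. Dntt and Rag1, which mark developing lymphocytes of thymus and bone marrow, had 2 to 17 and 0 to 9 counts in the 6 libraries.

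**Figure D3:**
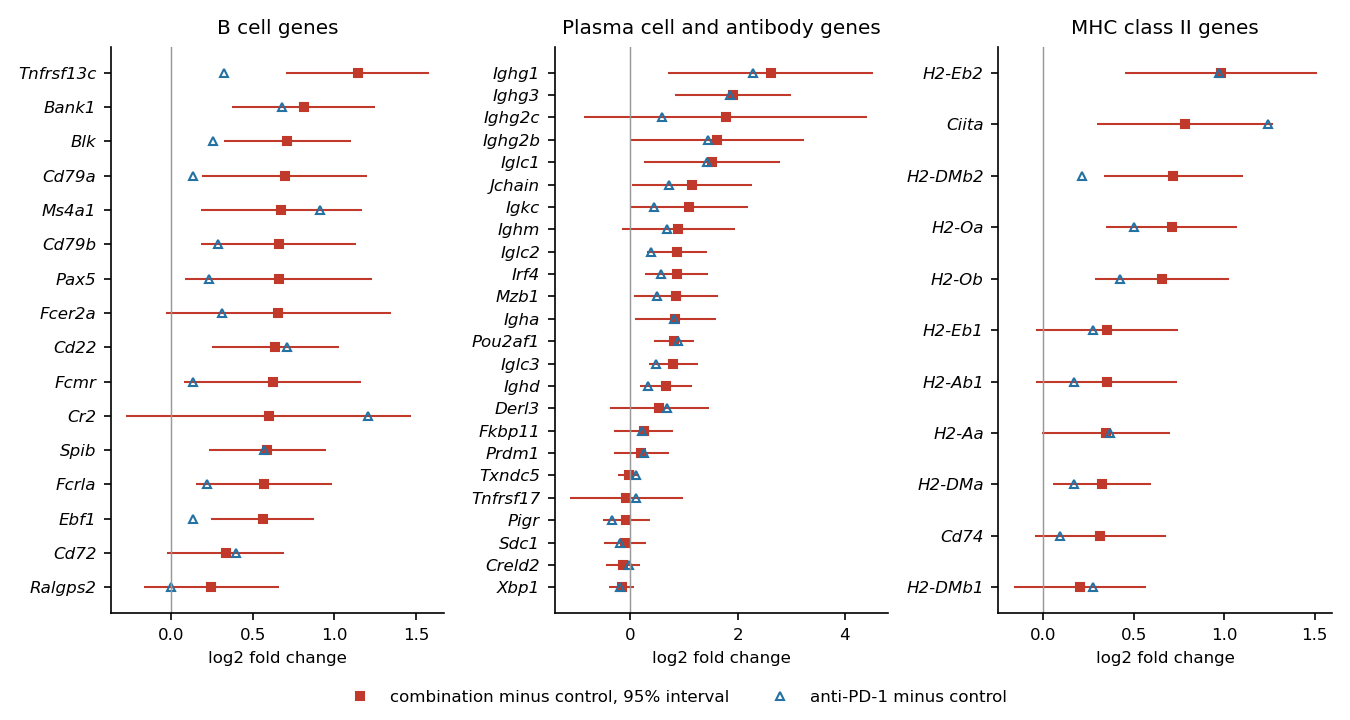
Log2 fold change of tested genes of the B cell (16 of 17 drawn), plasma cell and antibody (24) and MHC class II (11) lists in the combination group against control (squares, with unadjusted 95% intervals) and in the anti-PD-1 group against control (triangles, no interval drawn). All B cell and MHC class II squares drawn lie above 0, and the antibody constant genes have the largest differences and the widest intervals.

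Antibody genes stood higher but varied widely among libraries. Of 24 plasma cell and antibody constant genes, 18 had a higher mean (background 48%), 11 with an unadjusted p under 0.05 (background 2.72%), and the median was 0.83. Ighg1 (ENSMUSG00000076614), the constant region of IgG1, had 26.4, 5.47 and 13.7 CPM in the control and 23.7, 72.1 and 185 CPM in the combination libraries. Library 1 fell among the controls. The log2 fold change of Ighg1 was 2.61 ± 0.85 (edgeR adjusted p 0.592), 1.65 without combination library 3 and 0.65 with combination library 1 as the only one. Ighg3 (ENSMUSG00000076615), that of IgG3, had 5.19, 2.43 and 2.62 CPM against 16.5, 17.2 and 4.88 CPM. Here library 3 was the one within the control range (1.91 ± 0.50, edgeR adjusted p 0.417). The log2 fold change of Jchain, which links IgA and IgM units, was 1.15 ± 0.50, and 0.14 with combination library 1 as the only one.

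The most abundant antibody transcripts also varied among the controls. Igkc, the kappa constant region, had 1230, 329 and 506 CPM in the control and 659, 1980 and 1750 CPM in the combination libraries (1.09 ± 0.50, edgeR adjusted p 0.756). Of the 120 immunoglobulin variable segments tested, 102 had a higher mean (48% of all genes) and the median was 0.87. An unadjusted p under 0.05 was reached by 32, all higher (2.72% of all genes). Groups did not overlap for 16 higher (3.92% of all genes) and 2 lower segments (5.78%). Values of the segments without single libraries are not given here. Igha, the IgA constant region, had no overlap between groups, with 156, 95 and 141 CPM against 238, 286 and 178 CPM (0.84 ± 0.35, edgeR adjusted p 0.733). Xbp1, a factor of secretory cells in general, stood at -0.17 ± 0.11. With anti-PD-1 alone the median of the 24-gene plasma cell and antibody list was 0.48. Of its members 2 were called higher by edgeR (5.34% of all genes), Ighg3 among them (1.85 ± 0.50, edgeR adjusted p 0.0348). With the structural RNA share as a covariate the median in the combination group was 0.17, with 2 genes higher and 1 lower at an unadjusted p under 0.05. Variable segments and constant genes resemble one another, so their counts can be split between copies.

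MHC class II genes, which present antigen to CD4 T cells, stood slightly higher. All 11 had a higher mean (48% of all genes), 6 had an unadjusted p under 0.05 (2.72%) and 10 had no overlap between groups (3.92%). The median was 0.35. The list summed to 4570, 4700 and 4440 CPM in the control and to 6100, 5940 and 5350 CPM in the combination libraries. H2-Oa, whose product tunes peptide loading in B cells, had 18.3, 13.7 and 17.2 CPM against 23.1, 31.5 and 25.8 CPM (0.71 ± 0.17, edgeR adjusted p 0.348). Ciita, the transactivator of the class, had 9.40, 16.8 and 16.9 CPM in the control and 28.2, 21.5 and 24.3 CPM in the combination libraries (0.78 ± 0.23, edgeR adjusted p 0.448). It was called higher under anti-PD-1 alone (1.24 ± 0.23, edgeR adjusted p 0.00745).

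Among the presenting chains, H2-Eb2 had 5.40, 2.99 and 6.36 CPM in the control and 8.83, 12.7 and 7.72 CPM in the combination libraries, without overlap (0.98 ± 0.25, edgeR adjusted p 0.379). The far more abundant chain gene H2-Aa had 927, 960 and 890 CPM in the control and 1260, 1170 and 1110 CPM in the combination libraries, without overlap (0.35 ± 0.16, edgeR adjusted p 0.756). Unlike that of the B cell list, the sum of this one was not led by libraries 2 and 3: combination library 1 had the highest sum, and with the structural RNA covariate the median was 0.55. Single members differed in this. Among the combination libraries, H2-Oa and H2-Ob (61.2, 83.6 and 85.6 CPM) were lowest in library 1. Ciita and the abundant Cd74 (2680, 2610 and 2330 CPM) and H2-Aa were highest there. In the anti-PD-1 libraries the list summed to 4380, 4490 and 6940 CPM, with a median of 0.28 against control and 2 genes called higher by edgeR (5.34% of all genes).

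The genes of the targeted axis split. Cxcl13 (ENSMUSG00000023078, chr5:95956951-95961068, mm10) was at control level, with 13.3, 14.8 and 6.57 CPM in the control and 8.88, 12 and 14.5 CPM in the combination libraries. Its log2 fold change was 0.02 ± 0.36, with an unadjusted 95% interval from -0.76 to 0.81 (edgeR adjusted p 0.996). With anti-PD-1 alone it had 36.0, 20.9 and 57.7 CPM, and the combination group was called lower than that group (-1.70, edgeR adjusted p 0.0157). Its receptor gene Cxcr5 (ENSMUSG00000047880) stayed apart from control: 10.8, 7.17 and 13.3 CPM against 16.4, 25.6 and 17.5 CPM, without overlap (0.93 ± 0.22, edgeR adjusted p 0.348, DESeq2 adjusted p 0.0191). In the anti-PD-1 libraries Cxcr5 had 20.9, 21.2 and 21.7 CPM, and the combination group differed from it by -0.10 (edgeR adjusted p 0.802). The plot of single genes by library shows the ligand at control level beside the receptor at the level of anti-PD-1 alone.

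PD-1 and IL-21 pathway genes had few reads or overlapping groups. Pdcd1, which encodes PD-1, had 1.25, 2.26 and 1.02 CPM in the control and 1.24, 2.81 and 2.77 CPM in the combination libraries (0.59 ± 0.53, edgeR adjusted p 0.921). The ligand gene Cd274 stood at 0.33 ± 0.32 and the receptor gene Il21r at 0.40 ± 0.22, both with overlap. Il21 itself had 1, 4 and 3 counts in the control, 1, 0 and 2 in the combination and 15, 5 and 11 in the anti-PD-1 libraries, too few for the test. Il9r, another partner of the common gamma chain, had 1.77, 1.81 and 3.05 CPM against 3.32, 4.16 and 7.45 CPM, without overlap (1.17 ± 0.33, edgeR adjusted p 0.436). Jak3, the kinase of the common gamma chain, stood at 0.18 ± 0.14, and was lower than under anti-PD-1 (edgeR adjusted p 0.0449).

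**Figure D4:**
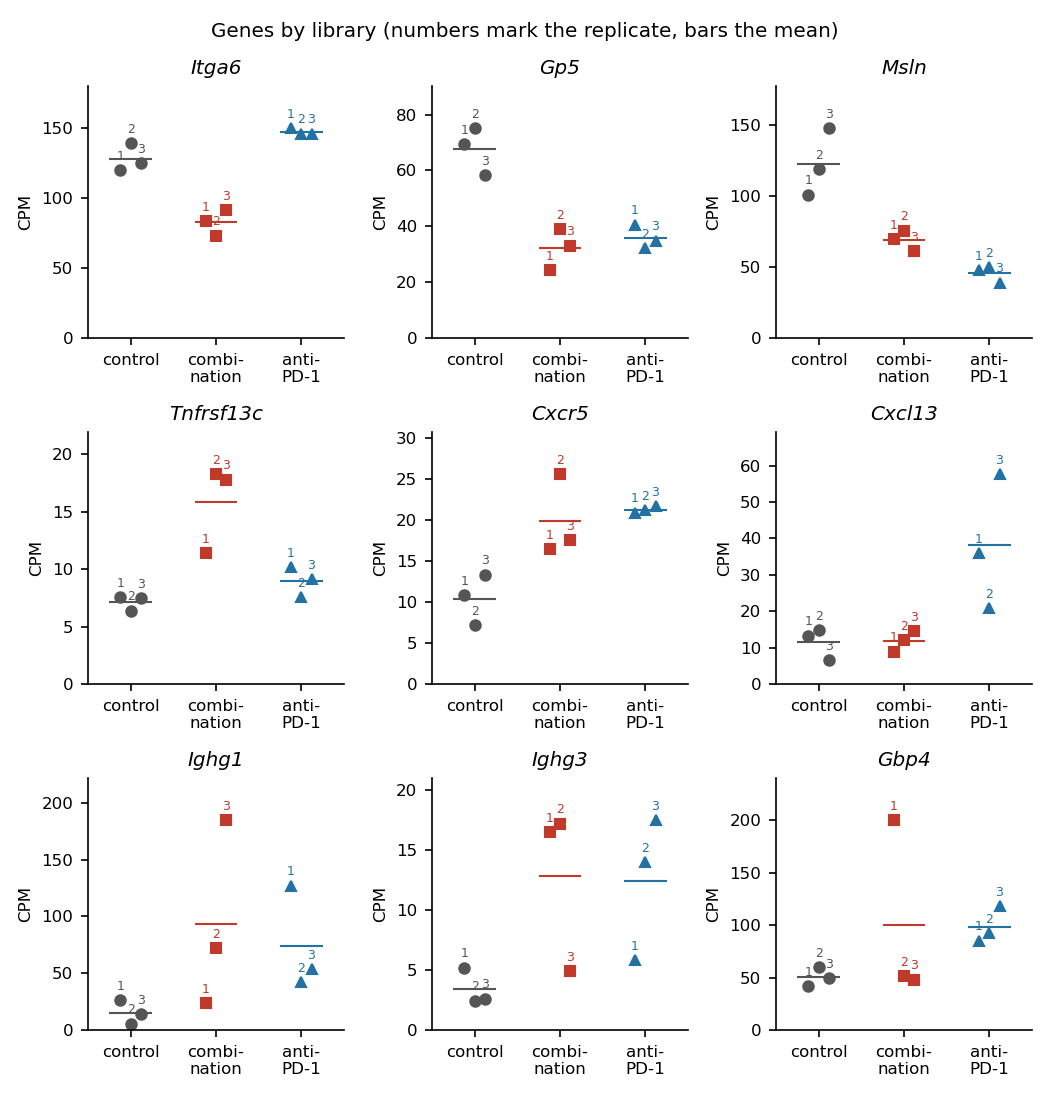
TMM-scaled CPM of 9 genes in each control, combination and anti-PD-1 library, with the replicate number at each point and the group mean as a bar. Itga6, Gp5 and Msln are lower and Tnfrsf13c and Cxcr5 higher in every combination library than in every control library, Cxcl13 overlaps control, and the group means of Ighg1, Ighg3 and Gbp4 rest on 1 or 2 libraries.

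Follicular helper genes had mostly higher means. The shares over all genes tested were 48% with a higher mean and 2.72% higher at an unadjusted p under 0.05. Of 13 members 11 had a higher mean and 4 an unadjusted p under 0.05, and the median was 0.29, or 0.09 without control library 1 and 0.50 without control library 2. The median was 0.08 with combination library 1 as the only combination library. With the structural RNA share as a covariate it was 0.19, and 1 member reached that mark. With anti-PD-1 alone the median was 0.75 and 5 genes were called higher by edgeR (5.34% of all genes). In the direct contrast of combination with anti-PD-1 the median was -0.19, and 1 of 13 was called lower (4.35% of all genes). Of 12 checkpoint genes 10 had a higher mean and 2 an unadjusted p under 0.05, with a median of 0.30, or 0.15 without control library 1. Tox2, a factor of these cells, had 9.04, 7.84 and 10.2 CPM in the control and 12.4, 15.7 and 13 CPM in the combination libraries, without overlap (0.60 ± 0.18, edgeR adjusted p 0.472). Ctla4, an inhibitory receptor of activated and regulatory T cells, had 9.25, 12.9 and 11.5 CPM against 17.1, 22.6 and 18.1 CPM, also without overlap (0.78 ± 0.22, edgeR adjusted p 0.447). Both were called higher under anti-PD-1 alone (edgeR adjusted p 0.0074 and 0.0129). The general T cell list had 0 of 22 members with an unadjusted p under 0.05 and a median of 0.20. That median was 0.06 without combination library 2 and 0.33, with 4 members at that mark, without control library 2.

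Genes induced by interferon gamma rested on 1 library. Of 22 members 20 had a higher mean (48% of all genes), with a median of 0.54, but only 2 had an unadjusted p under 0.05 (2.72% of all genes). The guanylate-binding protein gene Gbp4 had 41.6, 59.8 and 49.1 CPM in the control libraries and 200, 51.1 and 47.9 CPM in combination libraries 1 to 3. Without combination library 1 the median was 0.11 and Gbp4 stood at -0.02. Ubd, a ubiquitin-like protein induced by inflammatory cytokines, had no overlap between groups, with 1.87, 1.64 and 1.18 CPM against 2.92, 4.48 and 3.50 CPM (1.21 ± 0.41, edgeR adjusted p 0.578). It was called higher under anti-PD-1 alone (2.22 ± 0.40, edgeR adjusted p 0.00738). Type I interferon genes had 0 of 22 members at an unadjusted p under 0.05.

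Transcripts of the mitochondrial genome and of red cells stood higher than in control and than with anti-PD-1 alone. Mitochondrially encoded genes took 7.32, 10.4 and 7.97% of counts in the control, 11.5, 14.9 and 13.7% in the combination and 7.88, 8.31 and 11.9% in the anti-PD-1 libraries. The combination mean was 13.4% ± 1.72 against 8.56% ± 1.62 (SD, n = 3 each), with an exact two-sided permutation p of 0.1, the smallest that 3 libraries against 3 allow. All 14 genes tested had a higher mean, 10 had an unadjusted p under 0.05 (2.72% of all genes) and 9 had no overlap (3.92%). The median was 0.71, and 0.44 with combination library 1 as the only combination library. With anti-PD-1 alone the median was -0.05, and 7 of 14 were called higher in the combination than in that group by edgeR (4.67% of all genes). mt-Co1 (ENSMUSG00000064351), a cytochrome oxidase subunit, had 26500, 41100 and 31500 CPM in the control and 50200, 67900 and 58200 CPM in the combination libraries (0.83 ± 0.23, edgeR adjusted p 0.423). The ribosomal RNA gene of the same genome, mt-Rnr1, overlapped between groups (0.23 ± 0.24). Nuclear genes of the respiratory chain had 0 of 38 members at an unadjusted p under 0.05 and a median of -0.03.

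Red cell genes stood higher while platelet genes stood lower. Of 13 erythroid genes 11 had a higher mean (48% of all genes) and 6 an unadjusted p under 0.05 (2.72% of all genes), and the median was 0.62. Alas2, the first enzyme of haem synthesis in red cells, had 369, 340 and 282 CPM in the control and 603, 892 and 379 CPM in the combination libraries (0.92 ± 0.24, edgeR adjusted p 0.404). The lowest combination value, in library 3, was just above the highest control value. The haemoglobin share of counts was 2.79% ± 1.12 with both antibodies, against 1.65% ± 0.364 in control (SD over 3 libraries, exact two-sided permutation p 0.2). With anti-PD-1 alone the erythroid median was -0.51, and 5 of 13 genes were called higher in the combination than in that group by edgeR (4.67% of all genes). Without combination library 2 the median against control was 0.41, and 2 members had an unadjusted p under 0.05. How much blood each lung held was not measured, and its part in the erythroid and platelet results was not tested.

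**Figure D5:**
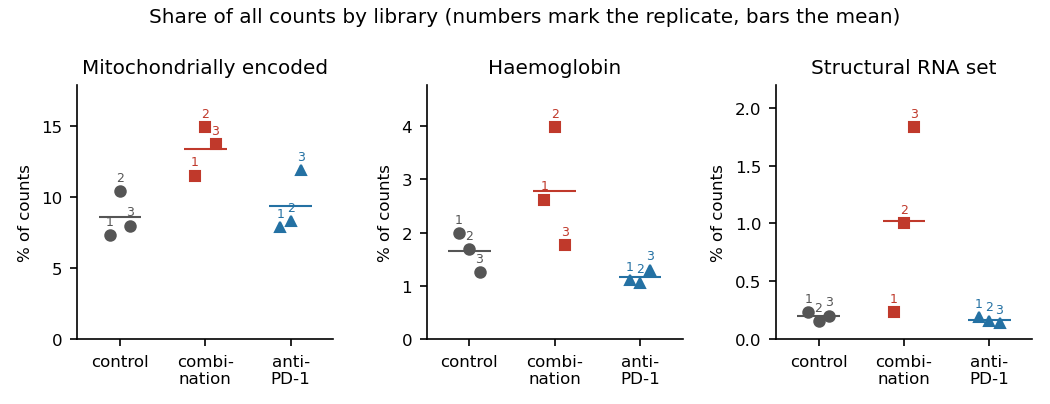
Share of all counts taken by mitochondrially encoded genes, haemoglobin genes and the 11-gene structural RNA set in each control, combination and anti-PD-1 library, with the replicate number at each point and the group mean as a bar. The mitochondrial share is higher in all 3 combination libraries than in all 3 controls, and the structural RNA set is high in combination libraries 2 and 3 only among these 9 libraries.

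A chemokine of dendritic cells went opposite ways in the treated groups. Ccl17, which attracts T cells through CCR4, had 10.9, 13.6 and 8.98 CPM in the control, 17.7, 23 and 14.8 CPM in the combination and 7.27, 6.13 and 6.98 CPM in the anti-PD-1 libraries. The 3 groups did not overlap. It stood at 0.73 ± 0.21 against control (edgeR adjusted p 0.436) and rose by 1.44 against anti-PD-1 (edgeR adjusted p 0.00338). The scavenger receptor gene Cd163, a marker of resident macrophages, went the other way, with 3.32, 6.49 and 3.79 CPM in the control, 2.25, 2.88 and 3.30 CPM in the combination and 8.27, 7.49 and 9.92 CPM in the anti-PD-1 libraries. It fell by 1.61 against anti-PD-1 (edgeR adjusted p 0.00541) and stood at -0.69 ± 0.27 against control (edgeR adjusted p 0.664). The interstitial macrophage and monocyte list had a higher mean against control in 12 of 20 genes (48% of all genes) and a median of 0.07. Of its members 4 were lower at an unadjusted p under 0.05 (3.90% of all genes). Ccl17 was counted in the list of monocyte chemokines and receptors, where 8 of 16 means were higher and 8 lower, with a median of -0.01. In the same list Ccl24 was lower without overlap (-0.88 ± 0.28, edgeR adjusted p 0.529). For the dendritic cell list, which does not hold Ccl17, 7 of 14 means were higher, with a median of 0.02. Apln, the apelin gene of endothelial tip cells, had 15.4, 8.91 and 12.7 CPM in the control and 20.1, 22.9 and 27.1 CPM in the combination libraries, without overlap (0.92 ± 0.19, edgeR adjusted p 0.291). Its list, that of blood endothelium, had a lower mean in 15 of 25 genes (52% of all genes). The list's median was -0.11, or 0.13 without control library 1. At an unadjusted p under 0.05, 6 members were lower (3.90% of all genes) and 2 higher (2.72%).

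For some lists the values in the combination group depended on single libraries while anti-PD-1 alone moved many members. Neutrophil-attracting chemokine genes had a median of 0.19 against control in the combination group and -1.90 with anti-PD-1 alone, where 3 of 8 were called lower by edgeR (5.58% of all genes). The combination median was 0.04 without combination library 3, -0.02 without control library 1 and 0.36 without control library 2. Neutrophil genes had medians of -0.11 and -0.91, with 1 of 19 at an unadjusted p under 0.05 in the combination group and 8 called lower by edgeR with anti-PD-1 alone (5.58% of all genes). Without control library 2 the combination median was 0.28, with 17 of 19 higher, without control library 1 it was -0.31, and without control library 3 it was -0.22. Cytosolic ribosomal protein genes had medians of 0.11 and -0.43, and 0 of 39 reached an unadjusted p under 0.05 in the combination group. Without combination library 2 the combination median was -0.02. The direct contrast of the 2 treated groups called 8 neutrophil genes and 29 ribosomal protein genes higher with both antibodies (edgeR, background 4.67%).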

How the data were processed

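Whole-lung RNA was sequenced as directional poly(A) libraries. The authors deposited raw counts per gene, and these whole-number counts were used as deposited. Per the submitters' processing notes the tools were bcl2fastq 1.8.4, Trimmomatic, HISAT2 and featureCounts 1.6.3 with the mm10 build; their options, the annotation release and the strand setting are not given in the sources used here, so overlapping and antisense genes cannot be separated with certainty. Genes were kept by edgeR's filterByExpr (minimum count 10, minimum total 15), scaled by TMM and fitted with edgeR 4.0.16 (robust quasi-likelihood, 4 group means over 12 libraries, 8 residual degrees of freedom) in R 4.3.3, p-values being adjusted by Benjamini-Hochberg across every tested gene, with a threshold of 0.05. SE is the log2 fold change divided by the root of F. DESeq2 1.42.0 and limma 3.58.1 were alternatives, and Python 3.11.15 drew the plots. The scripts were tested on simulated data. Shares were compared by exact permutation. The members and the 60 gene lists were chosen with earlier results of these data known. Genes were named by a rule: the PD-1, IL-21 and CXCL13 axis genes, genes called with the largest change, the members of each list with the smallest p, and the 5 higher and 5 lower genes with the smallest p apart from predicted genes and receptor segments. Other genes printed were chosen after their values were seen. The groups share replicate numbers, but same-numbered libraries did not deviate together (correlations -0.0187, -0.0412 and 0.154), so libraries were not paired. The values of 1 B cell gene are not reported here, though it counts in its list.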

Additional observations from a re-analysis of the deposited data

How the results depend on the processing

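With 3 libraries a group the test had little power for small differences, and 1 library could carry a list. DESeq2 called 39 genes higher and 39 lower, 20 of them by at least 2-fold, and a fit without the filter on low counts called 5 and 6, 2 of them by at least 2-fold. Leaving out 1 library at a time called 0 to 13 genes higher, 0 lower and 0 to 12 by at least 2-fold, and the 13 came without combination library 1. With library totals in place of TMM the genes at an unadjusted p under 0.05 were 242 higher and 1503 lower, with the median of all genes at -0.10, and with only the 6 libraries fitted 462 were lower. The replicate block called 0 genes either way (494 higher and 683 lower at an unadjusted p under 0.05), and the log2 fold change of Cxcl13 was -0.0214. Alternatives chosen after seeing the data were the structural RNA share as a covariate (10 called higher, all 10 by at least 2-fold), combination library 1 alone, assumed to vary like the other groups (14 higher, 1 lower, 15 by at least 2-fold), the 9 aged libraries, and the test without structural RNA genes (0 called in both). Cxcl13 changed sign with library totals (-0.0606), without combination library 3 (-0.15), without control library 3 (-0.26), with the covariate (-0.29) and with combination library 1 alone (-0.37), and leaving out 1 library gave it -0.26 to 0.24. The log2 fold change of Gbp4 was -0.0205 without combination library 1 and at up to 1.33 without combination library 3. With the covariate the log2 fold change of Igkc was -0.0326, Ighm at -0.21 and mt-Rnr1 at -0.26, and with combination library 1 alone Igkc at -0.0489, Ighm at -0.18, mt-Rnr1 at -0.44 and Pdcd1 at -0.26. The causes were not tested.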
